A study of Mus musculus with 9 samples.

Results

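The 9 genes described here mark B cells, and they were taken by symbol from the gene tables: Cd79a, Cd79b, Blk, Ms4a1, Cd22, Fcer2a, Cr2, Pax5 and Spib. They are 9 of 23944 genes measured, and all 9 passed the filter on low counts. Cr2 stood in the tables a second time, under the identifier ENSMUSG00000094924, as a shorter row inside the main Cr2 gene on the same strand. That row held 0 to 8 reads a library, did not pass the filter and is not counted below. The annotation gave no other gene that overlaps a member.

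B cells are lymphocytes that recognise antigen through a membrane-bound antibody. The antibody signals through a pair of partner chains, and Src-family kinases and inhibitory surface receptors set the strength of the signal. Resting mature B cells circulate through blood, lymphoid organs and, in smaller numbers, the lung, where they lie in vessels, in the tissue and in scattered follicles.

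Left lungs of adult wild-type mice were studied, and each group had 3 libraries of whole-lung RNA. Shock grafts were C57BL/6 lungs from donors that spent 4 h in hypovolemic shock and then recovered for 20 h. Mean arterial pressure in shock was 15 ± 5 mmHg. These lungs were next stored at 0 °C for 24 h, placed in Balb/C recipients and reperfused for 2 h. Cold-ischemia grafts were C57BL/6 lungs stored at 0 °C for 24 h, placed in Balb/C recipients and reperfused for 2 h, without donor shock. Naive lungs came from C57BL/6 mice and were not transplanted. A graft holds donor cells and, after reperfusion, recipient blood cells, so its B cell transcripts can come from either mouse. In whole tissue, fewer B cells and less RNA per B cell cannot be told apart.

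Total counts ran from 18913487 to 34986276 reads a library, and single members had 9 to 1167 reads. Levels are in CPM, reads scaled to library sizes corrected by the TMM method, and a gene was called where the adjusted p of edgeR's quasi-likelihood test was under 0.05. The p-values measure the spread between these libraries, which may in part be technical, as the labels do not name the animals. Lung epithelial genes were high in every library: the surfactant gene Sftpc had 7996 to 14141 CPM in grafts and 12727 to 14458 CPM in naive lungs. In 2 graft libraries the group differed between the sample titles and the deposited tables: cold-ischemia replicate 2 stood among the shock grafts in the tables, and shock replicate 3 among the cold-ischemia grafts. Groups follow the titles here. The pooled comparison of 6 grafts with 3 naive lungs holds the same libraries under either grouping, though its fit changes with it. Results are also given without the 2 libraries of disputed group. In a chi-square of reads per degree of freedom, lower for more alike libraries, shock replicate 3 was nearest cold-ischemia replicate 1 (21.8). Of its title group, shock replicate 1 was nearest (70.0). Cold-ischemia replicate 2 was nearest shock replicate 1 (37.1), though shock replicate 2 stood at 116.9. Of its title group, cold-ischemia replicate 3 was nearest (64.0). Which grouping is right was not tested. The labels of the 3 naive lungs each cite a further sample record and those of the grafts do not, so any batch that this marks cannot be told apart from the naive group.

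Transcripts of B cell genes were lower in the grafts. Of the 9 members, 7 were lower and 0 higher in the 6 grafts than in the 3 naive lungs; over all 15834 genes tested, 19.7% were called lower and 22.1% higher. Cr2, the gene of the complement receptors CD21 and CD35, stood lowest, at 26.0% of the naive level. Ms4a1, the gene of the surface protein CD20, stood at 36.5%, and Cd79a and Cd79b, the signalling chains of the B cell receptor, at 47.1% and 49.1%. Pax5 and Blk were the 2 members that were not called. The median log2 fold change was -1.09 over the members and -0.052 over all genes. In 6 of 9 members every graft lay below every naive lung, which held for 20.0% of all genes tested. The same 7 members were lower with the grouping of the deposited tables, where Ms4a1 had a log2 fold change of -1.39 (adjusted p = 0.00164), and without the 2 libraries of disputed group.

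The members differ in how much transcript a naive lung holds. Per length of gene, in the deposited FPKM, Cd79a led with 23.5 ± 4.84 and Cd79b followed with 18.2 ± 1.91 (SD, n = 3 naive lungs). Next came Ms4a1 with 6.15 ± 0.262, Fcer2a with 5.70 ± 2.40, Spib with 5.40 ± 0.753 and Cd22 with 4.02 ± 1.08 FPKM. Pax5 had 2.26 ± 0.916, Blk 1.85 ± 0.134 and Cr2 0.832 ± 0.282 FPKM. Only 3 neighbouring pairs in this order had naive ranges that did not overlap, and they were Cd79b over Ms4a1, Cd22 over Pax5 and Blk over Cr2.

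Cd79a and Cd79b encode the paired chains that carry the signal of the B cell receptor. Cd79a lies on the plus strand at chr7:24897381-24902197 and Cd79b on the minus strand at chr11:106311341-106314762 (mm10). Cd79a had 10.9, 13.9 and 18.1 CPM in the shock grafts, 12.7, 9.80 and 17.9 CPM in the cold-ischemia grafts, and 33.4, 31.8 and 23.2 CPM in the naive lungs. The grafts lay entirely below the naive lungs, and the third library was the highest in both graft groups but the lowest among the naive lungs. The log2 fold change of Cd79a in the 6 grafts was -1.09 ± 0.21 (SE, adjusted p = 0.00219). Cd79b had 9.12, 9.62 and 11.0 CPM in the shock grafts, 12.4, 9.84 and 14.5 CPM in the cold-ischemia grafts, and 24.3, 22.6 and 20.6 CPM in the naive lungs. Its groups were separate as well, and its log2 fold change was -1.03 ± 0.15 (adjusted p = 0.000341).

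Blk encodes a Src-family kinase that signals below the B cell receptor, and in the mouse it is also expressed in gamma-delta T cells that make Il17a. It lies on the minus strand at chr14:63372837-63417187. Blk had 3.05, 2.44 and 4.16 CPM in the shock grafts, 2.68, 2.58 and 2.72 CPM in the cold-ischemia grafts, and 3.83, 4.21 and 3.77 CPM in the naive lungs. Shock replicate 3 overlapped the naive lungs and the other 5 grafts lay below them. Its log2 fold change was -0.43 ± 0.21 and was not called (adjusted p = 0.128); under upper-quartile scaling it was -0.63 and called (adjusted p = 0.0318).

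**Figure D1:**
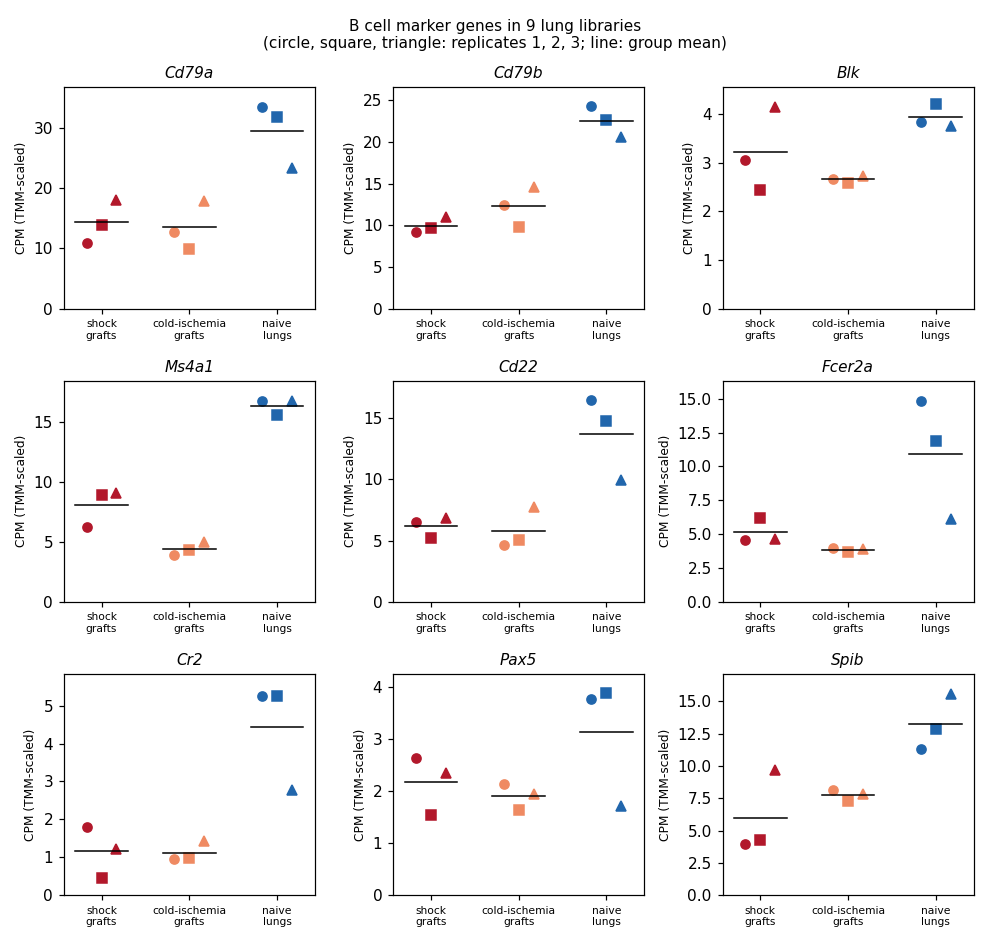
Level of each of the 9 B cell genes in every library, in CPM on TMM-scaled library sizes, with 1 panel a gene and a vertical axis from 0. Points are libraries of the shock grafts, cold-ischemia grafts and naive lungs, marked by replicate number, and the line is the group mean; the grafts lie below the naive lungs without overlap in all panels but those of Blk, Fcer2a and Pax5.

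Ms4a1 encodes CD20, a membrane protein of B cells from the pre-B stage until they become plasma cells. It lies on the minus strand at chr19:11249675-11266241. Ms4a1 had 6.19, 8.92 and 9.08 CPM in the shock grafts, 3.85, 4.34 and 4.99 CPM in the cold-ischemia grafts, and 16.7, 15.5 and 16.7 CPM in the naive lungs. Grouped by the titles, the 3 groups did not overlap with one another. With the grouping of the deposited tables the 2 graft groups overlapped, and both still lay below the naive lungs. The naive lungs differed by a coefficient of variation of 4.24%, the smallest of the 9 members. The 6 grafts averaged 6.23 ± 2.28 CPM against 16.3 ± 0.691 CPM in the naive lungs (SD), a log2 fold change of -1.45 ± 0.16 (adjusted p = 6.67e-05).

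Cd22 encodes a sialic acid-binding receptor that restrains B cell receptor signalling. It lies on the minus strand at chr7:30865402-30880342. Cd22 had 6.53, 5.23 and 6.82 CPM in the shock grafts, 4.63, 5.04 and 7.71 CPM in the cold-ischemia grafts, and 16.5, 14.8 and 9.91 CPM in the naive lungs. All grafts lay below all naive lungs, though naive replicate 3 was closer to the grafts than the other naive lungs were. The log2 fold change was -1.19 ± 0.22 (adjusted p = 0.00136).

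Fcer2a encodes CD23, the low-affinity receptor for IgE, which mature follicular B cells carry. It lies on the minus strand at chr8:3681737-3694174. Fcer2a had 4.56, 6.23 and 4.61 CPM in the shock grafts, 3.99, 3.65 and 3.88 CPM in the cold-ischemia grafts, and 14.9, 11.9 and 6.15 CPM in the naive lungs. Shock replicate 2 lay just above naive replicate 3, and the other 5 grafts lay below all naive lungs. It was called lower despite this overlap, with a log2 fold change of -1.30 ± 0.25 (adjusted p = 0.00189).

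Cr2 encodes CD21 and CD35, which bind complement fragments on B cells and on follicular dendritic cells. It lies on the minus strand at chr1:195136811-195176715. Cr2 had 1.80, 0.448 and 1.22 CPM in the shock grafts, 0.952, 0.984 and 1.43 CPM in the cold-ischemia grafts, and 5.26, 5.25 and 2.78 CPM in the naive lungs. Its groups were separate, and the grafts differed among themselves by 4.01-fold, the widest range of a member, with 9 reads in shock replicate 2. The log2 fold change was -1.95 ± 0.37 (adjusted p = 0.00173), and its standard error was the largest among the members.

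Pax5 and Spib encode transcription factors. Pax5 commits cells to the B lineage and keeps them in it, and it lies on the minus strand at chr4:44531145-44710487. Pax5 had 2.64, 1.54 and 2.35 CPM in the shock grafts, 2.13, 1.64 and 1.94 CPM in the cold-ischemia grafts, and 3.78, 3.89 and 1.72 CPM in the naive lungs. Naive replicate 3 lay among the grafts, and the log2 fold change of -0.61 ± 0.30 was not called (adjusted p = 0.128). Without naive replicate 3 the value was -0.91 and was called (adjusted p = 0.0275). Under upper-quartile scaling it was -0.82 and was called too (adjusted p = 0.0469).

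Spib encodes Spi-B, an ETS-family factor of mature B cells that plasmacytoid dendritic cells and intestinal M cells also use. It lies on the minus strand at chr7:44525995-44532071. Spib had 3.98, 4.23 and 9.71 CPM in the shock grafts, 8.12, 7.30 and 7.80 CPM in the cold-ischemia grafts, and 11.3, 12.9 and 15.6 CPM in the naive lungs. The grafts lay below the naive lungs, and shock replicate 3, of disputed group, stood apart from the other shock grafts. The log2 fold change was -0.96 ± 0.26 (adjusted p = 0.0131). Without naive replicate 3 it was -0.83 and was no longer called (adjusted p = 0.0647).

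RefSeq promoters (GRCm38.p6, the mm10 assembly) were matched for 6 of the 9 genes, in 8 entries, and the 250 bases before each start were searched on both strands for 3 motifs of B cell factors. These were the octamer ATGCAAAT of the Oct factors, found in 1.60% of 32851 promoters, the EBF1 motif, which is TCCC and GGGA with any 2 bases between, found in 0.779%, and GAGGAA, the core bound by PU.1 and Spi-B, found in 23.3%. No match below overlaps another. The only matches among the members were an EBF1 motif 49 to 40 bases before the start of Cd22 and a PU.1 and Spi-B core, on the opposite strand, 140 to 135 bases before the start of Cd79a. The 150 bases before these starts are shown because they hold the only matches, with the motif in capitals and each strand read 5′ to 3′ toward the gene. Both genes were called lower, as were Cr2, Fcer2a and Spib, whose promoters held no match. For these 2 genes the RefSeq start differs from the start of the gene as it was counted. Cd79a as counted begins at chr7:24897381, so most of its printed stretch, though not the motif, lies inside the gene. Cd22 as counted begins at chr7:30880342 on the minus strand, so its whole printed stretch, with the motif, lies inside the gene. A match says only that the letters are there.
Cd79a, chr7:24897347-24897496, plus strand: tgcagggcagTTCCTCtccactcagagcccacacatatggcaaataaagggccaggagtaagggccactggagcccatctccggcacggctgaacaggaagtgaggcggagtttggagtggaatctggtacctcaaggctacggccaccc
Cd22, chr7:30879029-30879178, minus strand: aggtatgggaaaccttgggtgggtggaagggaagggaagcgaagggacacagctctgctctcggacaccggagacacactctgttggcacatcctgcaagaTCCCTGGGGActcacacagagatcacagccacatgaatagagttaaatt

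The libraries of a group also differed in the members as a whole. Summed over the 9 members, the level was 48.8 to 67.0 CPM in the shock grafts, 45.2 to 62.9 CPM in the cold-ischemia grafts and 100.4 to 129.8 CPM in the naive lungs. Shock replicate 3 and cold-ischemia replicate 3 were each the highest of their group in 6 of 9 members, and cold-ischemia replicate 2 was the lowest of its group in 6. Naive replicate 3 was the lowest naive lung in 7 of 9 members; Ms4a1 and Spib, in which it was the highest, were the exceptions. After the group means were subtracted, the correlation of a member with the mean of the other 8 over the 9 libraries was highest for Cd79a, at 0.86, and lowest for Ms4a1, at 0.20. The libraries share depth and composition in such values, which are descriptions only.

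Both graft groups had lower B cell transcripts than the naive lungs when they were compared with them one at a time. In the shock grafts 7 of 9 members were lower, against 17.9% of all genes, and Pax5 and Blk were not called. In the cold-ischemia grafts 6 of 9 members were lower, against 13.1% of all genes, and Pax5, Blk and Spib were not called. No member was higher in either, where 22% of all genes were higher in the shock grafts and 17.5% in the cold-ischemia grafts. The 2 comparisons share the naive lungs, so their values are given side by side.

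Receptor chains and surface receptors fell in both. Ms4a1 had a log2 fold change of -1.02 ± 0.20 in the shock grafts and -1.89 ± 0.20 in the cold-ischemia grafts. Cd79a had -1.04 ± 0.26 in the shock grafts and -1.13 ± 0.26 in the cold-ischemia grafts. Cd79b had -1.18 ± 0.18 in the shock grafts and -0.87 ± 0.18 in the cold-ischemia grafts. These 3 genes were called in both groups, with adjusted p-values from 7.52e-05 to 0.00859. Cd22 had -1.14 ± 0.26 in the shock grafts and -1.24 ± 0.26 in the cold-ischemia grafts, and Cr2 had -1.92 ± 0.45 in the shock grafts and -1.97 ± 0.46 in the cold-ischemia grafts; both were called in both groups. Fcer2a had -1.09 ± 0.30 in the shock grafts (adjusted p = 0.0149) and -1.51 ± 0.31 in the cold-ischemia grafts (adjusted p = 0.00384). Fcer2a lost its call in the shock grafts when the 2 libraries of disputed group were left out (adjusted p = 0.0514), and likewise without naive replicate 1 (0.0678), naive replicate 2 (0.0513) or shock replicate 1 (0.0504).

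Among the transcription factors and the kinase, the calls were fewer. Spib had a log2 fold change of -1.15 ± 0.32 in the shock grafts (adjusted p = 0.0150) and -0.78 ± 0.31 in the cold-ischemia grafts (adjusted p = 0.0855). Without the 2 libraries of disputed group, Spib had -1.69 in the shock grafts and -0.73 in the cold-ischemia grafts and was called in both (adjusted p = 0.000609 and 0.0324), which made 7 members lower in the cold-ischemia grafts and, with Fcer2a lost, 6 in the shock grafts. Its call in the shock grafts was lost without naive replicate 3 (adjusted p = 0.0542) or shock replicate 1 (adjusted p = 0.0506). Pax5 had -0.51 ± 0.36 in the shock grafts and -0.71 ± 0.36 in the cold-ischemia grafts, and Blk had -0.29 ± 0.25 in the shock grafts and -0.56 ± 0.25 in the cold-ischemia grafts. In the authors' deposited tables, which use the other grouping, 7 of 9 members were lower in each graft group at their adjusted p under 0.05. Pax5 and Blk were the members that were not. The share of all genes lower by the authors' values was not counted. With edgeR under that grouping 6 members were among 2459 genes lower in the cold-ischemia grafts. In the shock grafts 7 members were among 3534 genes lower.

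**Figure D2:**
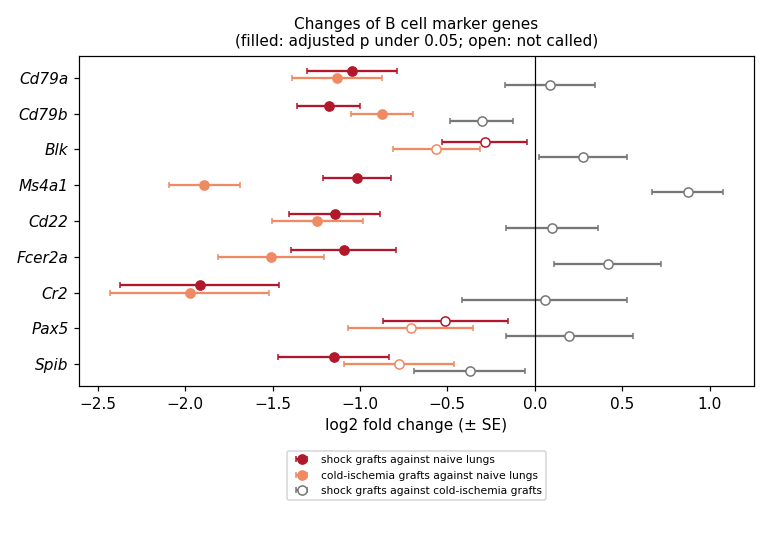
Log2 fold change of each B cell gene, with bars of 1 standard error, in shock grafts against naive lungs, cold-ischemia grafts against naive lungs, and shock grafts against cold-ischemia grafts. Filled points were called at an adjusted p under 0.05; all values against naive lungs lie below 0, and none of the values of shock against cold-ischemia grafts was called.

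Whether donor shock changed the B cell transcripts further was asked by setting the shock grafts against the cold-ischemia grafts. No member was called in edgeR's test, against 0% of all genes, and DESeq2 called no member either. At an unadjusted p under 0.05, 1 member and 1152 of 15834 genes stood out, and the member was Ms4a1. Ms4a1 averaged 8.06 ± 1.62 CPM in the shock grafts and 4.40 ± 0.567 CPM in the cold-ischemia grafts (SD, n = 3 each), a log2 fold change of 0.87 ± 0.20 (unadjusted p = 0.00130, adjusted p = 0.671). Ms4a1 and Fcer2a were the 2 members with every shock graft above every cold-ischemia graft, which held for 5.45% of all genes. This separation rests on the titles' grouping. With the grouping of the deposited tables the graft groups overlapped in both genes. Shock replicate 3 had 9.08 CPM of Ms4a1 and 4.61 CPM of Fcer2a, and cold-ischemia replicate 2 had 4.34 and 3.65 CPM.

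The other members did not pass either threshold. Fcer2a averaged 5.13 ± 0.949 CPM in the shock grafts and 3.84 ± 0.175 CPM in the cold-ischemia grafts (log2 fold change 0.42 ± 0.31). Spib went the other way, with 5.97 ± 3.24 CPM in the shock grafts and 7.74 ± 0.414 CPM in the cold-ischemia grafts (log2 fold change -0.37 ± 0.32), as did Cd79b with -0.30 ± 0.18. Without the 2 libraries of disputed group, Ms4a1 had 0.77 (adjusted p = 0.163) and Spib -0.96 (adjusted p = 0.101), and no member was called. With the grouping of the deposited tables Ms4a1 had 0.11, 7 of 9 members were negative, and the smallest adjusted p was 0.166. A p that misses the threshold does not show that the graft groups were alike.

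Whether the members fell by different amounts was tested through the ratio of each to Cd79a within a library, which does not depend on library size. Of 8 ratios, 0 passed after adjustment, and the smallest adjusted p of the exact two-sided permutation test was 0.381. A single ratio with fully separate groups cannot pass this adjustment, because the smallest exact p of 6 against 3 is 0.0238. The test therefore cannot decide whether a single member fell by a different amount. The highest difference was that of Blk, with a mean log2 ratio of -2.22 ± 0.34 in the grafts and -2.88 ± 0.25 in the naive lungs (SD, n = 6 and 3), or 0.67 (exact p = 0.0476). The lowest was that of Cr2, with -3.66 ± 0.75 in the grafts and -2.77 ± 0.25 in the naive lungs, or -0.89 (exact p = 0.0952). Pax5 differed by 0.56 (exact p = 0.143) and Ms4a1 by -0.36 (exact p = 0.357), while Cd79b, Cd22, Fcer2a and Spib lay between -0.11 and 0.093. With Cd79b below the line in place of Cd79a, the ratio of Blk was higher in every graft than in every naive lung (exact p = 0.0238, the smallest that 6 against 3 can give; adjusted p = 0.190).

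**Figure D3:**
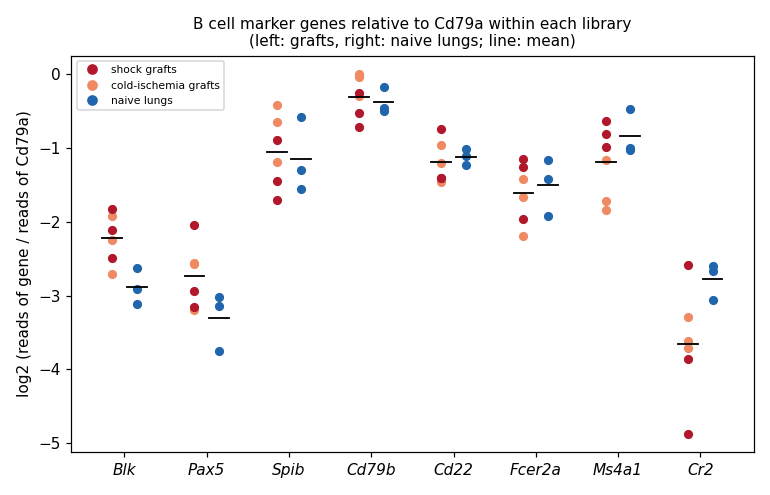
Log2 ratio of the reads of each B cell gene to those of Cd79a within a library, with 0.5 added to both counts; grafts stand to the left and naive lungs to the right of each gene, and lines are means. The means of Blk and Pax5 are higher and that of Cr2 lower in grafts than in naive lungs, and for all 8 genes the grafts and naive lungs overlap.

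Other genes of the B lineage, taken as a list of 29, were lower in part. Of the 27 with a row, 14 were lower and 0 higher in the 6 grafts, with a median log2 fold change of -0.70. These were 51.9% and 0%, against 19.7% lower and 22.1% higher over all genes. Over the alternative settings the count ran from 9 to 14 lower and 0 to 1 higher, and the 9 came without naive replicate 1. Ighm and Igkc fell: Ighm, the heavy chain of IgM, averaged 55.7 ± 10.4 CPM in the grafts and 101 ± 10.8 CPM in the naive lungs (adjusted p = 0.00142), and Igkc, the kappa light chain, 20.6 ± 6.67 CPM in the grafts and 37.0 ± 5.34 CPM in the naive lungs (adjusted p = 0.0142). Of the remaining genes of this list with the highest levels, Ebf1, a factor that stromal cells also express, had a log2 fold change of -0.092 ± 0.20, and Cd37 had 0.19 ± 0.18 and was negative under upper-quartile scaling; neither was called.

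In the plasma cell list of 8 tested genes 0 were lower and 1 was higher. The share called higher was 12.5%, against 22.1% over all genes. It was Xbp1, a factor of the secretory and unfolded protein programme in many cells. Xbp1 averaged 405 ± 34.4 CPM in the grafts and 207 ± 38.3 CPM in the naive lungs (adjusted p = 0.000359). Igha, the heavy chain of IgA, varied widely, with 13.4 ± 10.4 CPM in the grafts and 8.97 ± 11.0 CPM in the naive lungs (adjusted p = 0.639). Sdc1 and Prdm1, which epithelium and other cells also express, had log2 fold changes of 0.20 ± 0.12 and 0.29 ± 0.19 and were not called. The number higher was 3 without naive replicate 1 or shock replicate 2, and under upper-quartile scaling 1 was lower and 1 higher.

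Genes that carry the signal of the B cell receptor moved in both directions, with 3 lower and 7 higher of 17. These were 17.6% and 41.2%, against 19.7% and 22.1% of all genes. Among those that fell were Cd81, which many cells carry, with a log2 fold change of -0.55 ± 0.16, and the adaptor Bank1, with -1.18 ± 0.40. Bank1 also stands in the list of other B lineage genes. The 7 that rose were Syk, Pik3ap1, Bcl10, Malt1, Vav1, Dapp1 and Prkcb, all of which myeloid or other cells also use. Syk averaged 188 ± 43.4 CPM in the grafts and 53.4 ± 3.52 CPM in the naive lungs (adjusted p = 9.18e-06), and Lyn had a log2 fold change of 0.37 ± 0.14 (adjusted p = 0.0510). Under upper-quartile scaling 4 were lower and 6 higher, and the median of the list was -0.049 under that scaling and 0.16 with TMM.

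Of 11 genes that attract B cells or keep them alive, 2 were lower and 2 higher. At 18.2% each, these counts did not exceed the shares over all genes, 19.7% lower and 22.1% higher. The receptors Tnfrsf13c and Tnfrsf13b, which bind the survival factor BAFF, fell, with log2 fold changes of -1.05 ± 0.33 and -0.95 ± 0.26. Both also stand in the list of other B lineage genes and are counted there too. The follicle chemokine Cxcl13 averaged 8.13 ± 7.64 CPM in the grafts and 1.93 ± 0.736 CPM in the naive lungs (adjusted p = 0.0235), and Ccr7, the receptor that leads lymphocytes and dendritic cells to lymphoid tissue, 23.9 ± 7.11 CPM in the grafts and 14.6 ± 1.62 CPM in the naive lungs (adjusted p = 0.0285). Tnfsf13b, the BAFF gene itself, was not called, with 13.9 ± 5.28 CPM in the grafts and 18.7 ± 1.58 CPM in the naive lungs. Without naive replicate 2 none of the 11 was called, without naive replicate 1 there were 1 lower and 1 higher, and without naive replicate 3 there was 1 lower. The number lower was 1 without cold-ischemia replicate 2, and the number higher was 1 without cold-ischemia replicate 3 and under upper-quartile scaling.

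**Figure D4:**
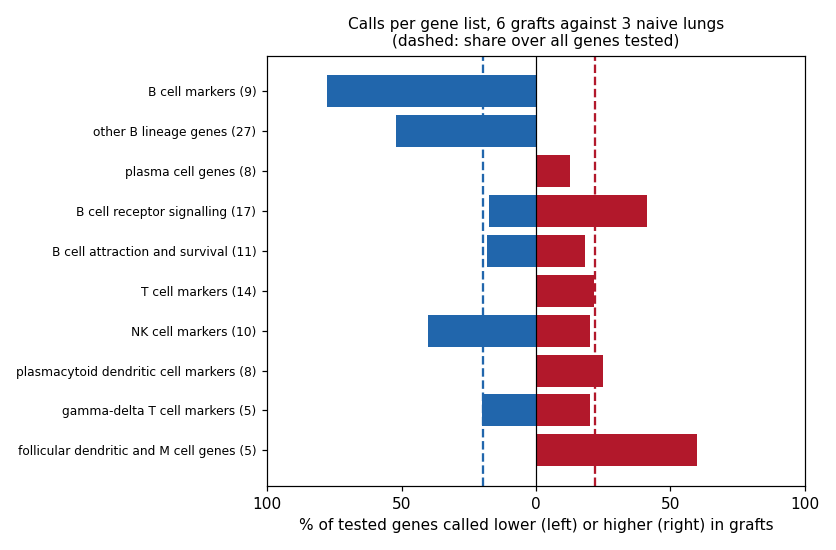
Percentage of tested genes of each list called lower (left, blue) or higher (right, red) in the 6 grafts against the 3 naive lungs. The number of tested genes stands in brackets, and dashed lines mark the shares over all genes, 19.7% and 22.1%. The list of neutrophil markers, of which all 12 were higher, is not drawn. The B cell markers (7 of 9 lower) and the other B lineage genes (14 of 27 lower) hold calls on the lower side only.

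Lists of other cells that use some of the same genes, or that could shift the makeup of the lung, were read beside the members. Of 14 T cell markers, 0 were called lower and 3 higher (Cd28, Cd3d and Cd6). The share called higher, 21.4%, was near the 22.1% over all genes. Their summed level was 65.0 to 100.02 CPM in the shock grafts, 74.3 to 91.2 CPM in the cold-ischemia grafts and 58.9 to 66.0 CPM in the naive lungs. Without naive replicate 2 the number of T cell markers higher was 1, and without shock replicate 1 it was 5. Cd3e, a chain of the T cell receptor complex, had 7.45 ± 1.5 CPM in the grafts and 5.08 ± 0.669 CPM in the naive lungs and was not called (adjusted p = 0.0545).

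Neutrophil markers moved the other way. All 12 were higher in the grafts, and their summed level was 1859 to 3266 CPM in the shock grafts, 1185 to 2260 CPM in the cold-ischemia grafts and 61.3 to 87.0 CPM in the naive lungs. S100a9, the most abundant of them, averaged 680 ± 287 CPM in the grafts and 16.2 ± 5.37 CPM in the naive lungs. Their part in the lower share of B cell transcripts was not tested.

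NK cell markers were divided, with 4 of 10 lower (Nkg7, Klrb1c, Klre1 and Klra8) and 2 higher (Gzmb and Prf1). These were 40% and 20%, against 19.7% lower and 22.1% higher over all genes. The number lower was 1 without naive replicate 2 or naive replicate 3, and 2 without cold-ischemia replicate 1, without shock replicate 3 or without both libraries of disputed group. It was 5 with DESeq2, under upper-quartile scaling and with the tables' grouping. Plasmacytoid dendritic cells share Spib with B cells, and of 8 of their markers 0 were lower and 2 higher (Irf8 and Ccr9). These 25% were near the 22.1% of all genes called higher. The number higher was 0 under upper-quartile scaling and without naive replicate 2 or 3, 1 without naive replicate 1, and 4 with DESeq2, with the tables' grouping and without the libraries of disputed group. Of 5 tested markers of gamma-delta T cells, which include Blk itself, 20% were lower and 20% higher, near the shares over all genes. Sox13 was lower, with 49.2 ± 9.31 CPM in the grafts and 131 ± 31.7 CPM in the naive lungs. That naive level was above the summed level of the T cell markers (58.9 to 66.0 CPM), and which cells carried Sox13 was not tested. Il17a was higher, with 1.97 ± 1.19 CPM in the grafts and 0.00843 CPM on average in the naive lungs. Upper-quartile scaling made 2 of these 5 lower, and 2 of 6 were higher without a filter and in 6 of the 9 fits that left out a replicate, which tested a further gene. Follicular dendritic cells share Cr2 and Fcer2a, and of 5 tested genes of these and M cells 3 were higher (Tnfaip2, Clu and Pigr) and 0 lower. These were 60% and 0%, against 22.1% higher and 19.7% lower over all genes. Tnfaip2, a target of inflammatory signalling in many cells, averaged 801 ± 193 CPM in the grafts and 43.6 ± 3.76 CPM in the naive lungs. Under upper-quartile scaling 1 of the 5 was higher and 1 lower. Leaving out any single naive lung also gave 1 higher. The part of these cells in the values of Spib, Blk, Cr2 and Fcer2a was not tested.

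Genes with a pattern most like that of the members were sought among 14013 genes with at least 1 CPM on average, by Pearson correlation with the mean z-score of the 9 members over the 9 libraries. With the group means kept, ZNF383 (r = 0.987), Msrb2 (0.976), Poll (0.972) and B3gntl1 (0.970) led, and the tenth gene had 0.965. With the group means subtracted, Lrrc24 (0.982), Zfp612 (0.972), Usp2 (0.972) and Flt3l (0.971) led, and the tenth had 0.961. Of these 20 genes 0 were in any of the lists. These correlations were not tested, and the highest of 14013 values over 9 libraries can be large by chance. With the group means kept, they also carry the difference between grafts and naive lungs. The other B lineage genes had a median r of 0.72 with the group means kept, from -0.52 to 0.96, and the T cell markers one of -0.47. With the group means subtracted the medians were 0.54 for the B lineage genes and 0.46 for the T cell markers.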

How the data were processed

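RNA of 9 whole left lungs was sequenced by the study, with paired reads of 150 bases, per the labels' protocols. Raw read counts per gene stand in 3 tables that the authors deposited, each setting a group against another, per the file headers. The same deposited tables give FPKM (counts per length and library total), a normalized signal (counts divided by a size factor per library), and the log2 fold change and p-value of each comparison. STAR, HTSeq, DESeq2, edgeR, STAR-Fusion and the build mm10 are named in the submitters' processing notes; their versions and the gene annotation are not given in the sources used here. Among the columns of single libraries, 0 could not be mapped to a sample, and 18 repeated columns differed in 0 values. No library repeated another (lowest chi-square 15.0 per degree of freedom).

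Counts were tested with edgeR 4.0.16 in R 4.3.3 (quasi-likelihood, two-sided, TMM, filterByExpr, 1 fit of 9 libraries with a mean per group), with Benjamini-Hochberg adjustment over 15834 genes. Single ratios were tested by exact permutation of the 6 grafts and 3 naive lungs (84 arrangements) with scipy 1.17.1. The alternatives were DESeq2 1.42.0, other scalings, no filter, the tables' grouping, and leaving libraries out; the steps were tested on simulated data. Counting the lists under these alternatives was added after their values were seen. A count of 0 allows up to 3 reads, and such floors cover counting error only. The members, the lists and the tests were chosen with earlier results of these data known. All 9 members are named in every comparison; of each list, up to 4 members with the highest mean CPM serve as examples, plus those needed for a count of 5 or fewer, and other list genes were named after their values were seen. The normalized signal was not used. The result of 1 list gene is not reported here.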

Additional observations from a re-analysis of the deposited data

Results flagged for a closer look

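Fcer2a in shock replicate 2 had 6.23 CPM and stood apart from the other 5 grafts, which lay between 3.65 and 4.61 CPM. Blk in shock replicate 3, a library of disputed group, had 4.16 CPM and stood apart from the other 5 grafts, which lay between 2.44 and 3.05 CPM. In each case the gap to the next graft, divided by the range of the 6 grafts, was above Dixon's critical value of 0.625, which chance exceeds in about 1 of 20 sets of samples; 9 genes were examined. The 6 grafts join 2 groups in this reading, since groups of 3 are too small for it.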

How the results depend on the processing

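All 9 members kept negative log2 fold changes against naive lungs under every alternative run, in the 6 grafts and in each graft group. With each replicate left out, 7 members were lower in the 6 grafts, where Pax5 took the place of Spib without naive replicate 3, 5 to 7 in the shock grafts and 6 to 7 in the cold-ischemia grafts. Upper-quartile scaling shifted the median of all genes to -0.25, against -0.052 with TMM, made the higher share of calls 34.8% in place of 52.8% (6 grafts), 39.3% in place of 57.1% (cold-ischemia grafts) and 36.5% in place of 55.1% (shock grafts), and raised the genes called lower to 5029, 3371 and 4661 in these comparisons; members lower were 9, 8 and 7. The cause was not tested. Genes called lower ranged over the omitted replicates from 2086 to 3498 (6 grafts), 1288 to 2568 (cold-ischemia grafts; 1323 without cold-ischemia replicate 1) and 1869 to 3112 (shock grafts), with both of the last lower ends reached without naive replicate 2. Spib in the cold-ischemia grafts was called with only the compared libraries in the fit (adjusted p = 0.00729), without shock replicate 3 (0.00942) and under upper-quartile scaling (0.0370), where Blk was too (0.0417), and Pax5 was called there without naive replicate 3 (-1.01, 0.0418).

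For shock against cold-ischemia grafts, DESeq2 called 7 genes higher and 1 lower, the tables' grouping 36 and 88, and the fit without the 2 libraries of disputed group 9 and 30, none of them a member. Directions there turned with the tables' grouping for Cd79a (-0.49), Pax5 (-0.14), Cd22 (-0.19), Cr2 (-0.14) and Blk (-0.24), and without the 2 libraries for Cd79a (-0.30), Cd22 (-0.067) and Cr2 (-0.059). With single replicates left out, Cd79a ranged from -0.12 to 0.33, Cd22 from -0.039 to 0.34 and Cr2 from -0.41 to 0.43. Ratios to Cd79a turned for Cd22 (0.035) and Fcer2a (0.055) with 2 CPM added, and ranged over the omitted replicates from -0.11 to 0.38 for Spib and from -0.32 to 0.059 for Fcer2a.

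Libraries with the same replicate number did not deviate together (r from -0.39 to 0.10 over 9 pairs; 1 of 9 correlated best with its own number), so numbers do not pair the samples. With the replicate block, members lower were 7 in the 6 grafts, 6 in the cold-ischemia grafts and 7 in the shock grafts, genes higher and lower were 3237 and 2874 in the 6 grafts, and Cr2 in shock against cold-ischemia grafts was -0.027. Only 9 to 43 reads a graft limit Cr2.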
